A study of Homo sapiens with 6 samples.

Results

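GDF15 and 8 genes of the ATF4 stress response (ATF4, CEBPB, ATF3, DDIT3, TRIB3, CHAC1, ASNS and SESN2) were followed across 6 Illumina bead arrays of human breast cancer cell lines. GDF15 was picked because its level was higher in both lines, under different hairpins. The others were added as known genes of the same response, with earlier results of these data already known. All 9 were measured among 13022 genes tested, through 14 of the 30113 probes that the platform annotation ties to a single gene. MDA-MB-231, a mesenchymal-like line, had 2 arrays with hairpin shRNA-1, labelled SETDB1 knockdown, and 2 with a control hairpin, shCtrl. MDA-MB-453, an androgen-receptor-positive luminal-like line, had 1 array with hairpin shRNA-3, also labelled SETDB1 knockdown, and 1 with its shCtrl. SETDB1 is a histone H3 lysine 9 methyltransferase, and the series asks which genes change when it is knocked down by short hairpin RNA. All cells were grown in DMEM with serum. Cell line and hairpin changed together, and the labels give no time after transduction and do not say whether replicates were separate cultures. The p-values therefore reflect array-to-array spread alone, possibly technical.

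When cells meet stress, kinases that phosphorylate the initiation factor eIF2 slow general protein synthesis while the mRNA of the transcription factor ATF4 is translated more. ATF4 pairs with C/EBP proteins such as CEBPB at composite promoter elements and switches on genes of amino acid supply, tRNA charging and redox balance, together with the further regulators ATF3, DDIT3 (CHOP) and TRIB3. GDF15 is a secreted ligand distantly related to TGF-beta that acts through the receptor GFRAL, and its gene is a known target of ATF4, CHOP and p53.

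The upstream promoter sequences of GDF15 and of the members that hold the C/EBP-ATF composite element are shown because that element is how ATF4 is known to reach its target genes. Each runs 5′ to 3′ over the 250 bases before the RefSeq start (GRCh38.p14), and capitals mark matches to TGATGNAA on either strand.
GDF15, chr19:18385908-18386157, plus strand: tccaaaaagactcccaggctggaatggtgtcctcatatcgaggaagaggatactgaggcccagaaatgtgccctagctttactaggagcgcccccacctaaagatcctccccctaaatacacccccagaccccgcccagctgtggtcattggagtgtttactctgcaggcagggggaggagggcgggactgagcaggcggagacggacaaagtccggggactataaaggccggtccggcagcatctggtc
ATF3, chr1:212565157-212565406, plus strand: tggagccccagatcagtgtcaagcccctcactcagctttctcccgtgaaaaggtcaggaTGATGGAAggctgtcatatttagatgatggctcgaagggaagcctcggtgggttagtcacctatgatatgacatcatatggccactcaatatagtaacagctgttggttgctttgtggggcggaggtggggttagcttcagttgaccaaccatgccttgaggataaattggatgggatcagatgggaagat
CHAC1, chr15:40953221-40953470, plus strand: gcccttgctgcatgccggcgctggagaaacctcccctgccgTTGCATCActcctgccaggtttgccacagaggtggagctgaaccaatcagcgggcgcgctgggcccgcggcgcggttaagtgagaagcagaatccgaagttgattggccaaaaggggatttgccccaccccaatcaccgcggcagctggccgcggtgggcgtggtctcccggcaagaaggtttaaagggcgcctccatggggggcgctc
ASNS, chr7:97872409-97872658, minus strand: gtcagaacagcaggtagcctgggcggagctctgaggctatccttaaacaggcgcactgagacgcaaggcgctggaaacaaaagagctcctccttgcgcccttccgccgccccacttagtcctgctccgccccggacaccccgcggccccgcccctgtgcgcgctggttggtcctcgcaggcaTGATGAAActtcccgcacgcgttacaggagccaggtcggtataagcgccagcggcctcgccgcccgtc

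TGATGNAA was searched on both strands of RefSeq windows from 250 bases before to 50 bases after each start, and 3.62% of 35116 such windows held it. Counted by gene, 4.46% of 27305 genes had it in at least 1 window. Among the 9 members, ATF3, CHAC1 and ASNS had it. ATF3 and ASNS each have another start whose window did not hold it. The first base of the match lay at -191 in ATF3, at -209 in CHAC1, where it is read on the opposite strand, and at -68 in ASNS, counted from the start site. No member window held TGACGTCA, the cyclic AMP response element found in 1.85% of windows, or TTGCGCAA, a C/EBP palindrome found in 0.151%, so no matches overlapped. For GDF15 and the other 5 members this says only that those letters are not in these windows.

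Between 19230 and 21238 of 48107 probes were detected per array, at median intensities of 47.9 to 60.4. Values below are background-corrected, quantile-normalised log2 intensities of the brightest probe of a gene, and a detection p-value of 0.05 or more is called not detected. SETDB1 itself stood at 7.29 and 7.21 on the MDA-MB-231 arrays labelled knockdown, against 7.40 and 7.42 on the controls, a difference of -0.16 ± 0.16 (SE, limma adjusted p = 0.493). For MDA-MB-453 the values were 8.73 with labelled knockdown and 8.98 with the control. A fall of the target was not shown by this probe, so the arrays are called labelled knockdown and every direction rests on that label. The lines matched their names: the mesenchymal VIM lay between 14.31 and 14.45 on the MDA-MB-231 arrays and at 7.28 and 7.46 on the MDA-MB-453 arrays. Among 16 measured MDA-MB-453 markers, 8 rose and 2 fell in MDA-MB-231 arrays labelled knockdown, or 62.5% called beside 39.2% of all genes, and their summed linear level was 14628 and 14193 against 4983 and 5551 on the controls. Of 14 measured MDA-MB-231 markers 6 rose and 2 fell (57.1%). PIP and RAB25, which read 10.76 and 11.63 in control MDA-MB-453 cells, stayed undetected on all 4 arrays of MDA-MB-231. Of 5 measured stromal and immune markers 4 rose there, at sums of 2044 and 1974 against 271 and 244, while PTPRC, CD3E and VWF were detected on fewer than 2 of 6 arrays. The part of these markers in the results below was not tested.

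GDF15 was far higher on every array labelled knockdown than on its line's controls. Its probe read 8.49 and 8.60 in MDA-MB-231 labelled knockdown, against 4.55 and 4.65 on the controls, where it was not detected. MDA-MB-453 gave 10.53 on the array labelled knockdown and 6.78 on the control, where it was detected. In raw intensity these were 375.4 and 390.1 against 47.91 and 52.76 in MDA-MB-231, and 1787 against 117.7 in MDA-MB-453. The normalised difference was 3.95 in MDA-MB-231 and 3.75 in MDA-MB-453, which is 13.5-fold. At the offset of 16, raising the undetected controls to the dimmest detected probes makes the MDA-MB-231 difference at least 13.4-fold. That bound holds for this processing only, since the difference was 2.81 with an offset of 50 and 2.97 without background correction. Counted down from the largest positive difference, GDF15 ranked 54 of 13022 genes in MDA-MB-231 and 3 in MDA-MB-453. These differences chose GDF15 and are given without a test. Which line had the larger one is not settled: with an offset of 50 in place of 16 they were 2.81 and 3.39. In cultured lines as in bulk samples, fewer expressing cells and less RNA per cell cannot be told apart.

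**Figure D1:**
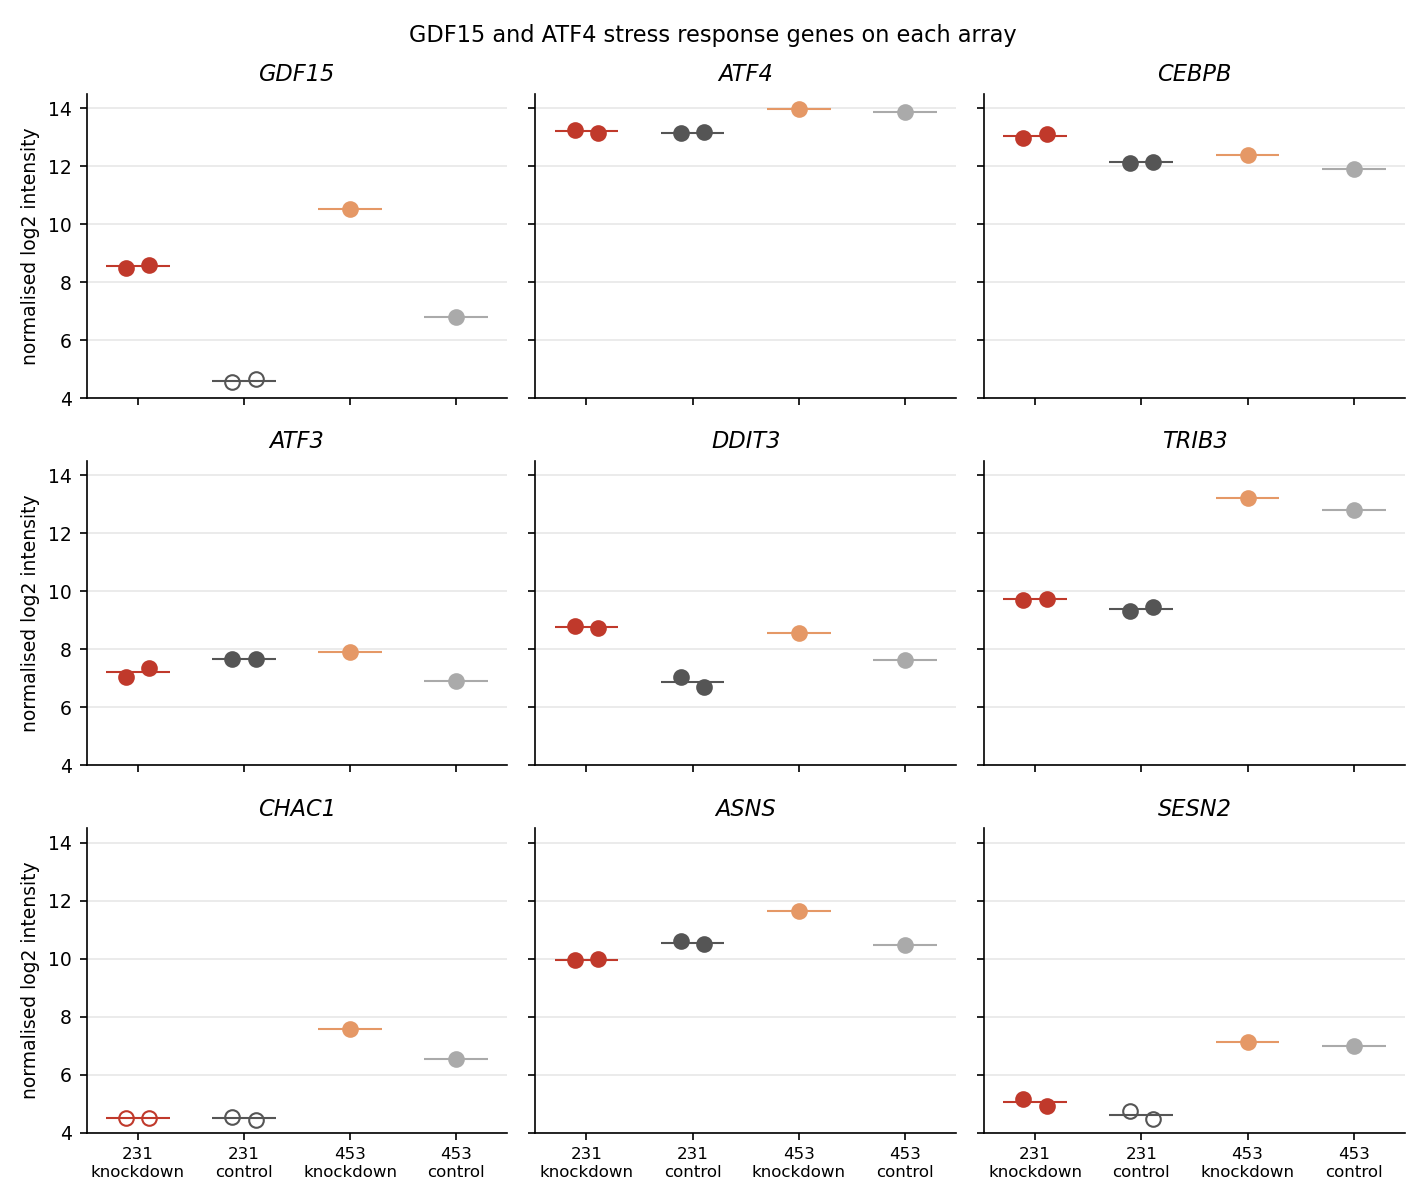
Normalised log2 intensity (y axis) of the 9 genes on each array, with 2 arrays each for MDA-MB-231 labelled knockdown and control and 1 each for MDA-MB-453 labelled knockdown and control; lines are group means, filled points are detected and open points not detected. GDF15 stands apart by arm in both lines, TRIB3, CHAC1 and SESN2 stand apart mainly by cell line, and ATF4 is high on all arrays.

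The other 8 genes did not follow GDF15 as a group in MDA-MB-231. DDIT3 and CEBPB rose, ASNS fell, and ATF4, ATF3, TRIB3, CHAC1 and SESN2 did not pass the test (limma, adjusted p below 0.05 over 13022 genes). That is 3 of 8 called, or 37.5%, beside 39.2% of all genes, so the share called is near the background of this comparison (19.5% of all genes rose and 19.7% fell). Their median difference was 0.19, against -0.0065 over all genes. In MDA-MB-453, with 1 array per arm and no test, all 8 were higher on the array labelled knockdown, with a median difference of 0.71 against 0.017 over all genes, and 52% of all genes were higher there. ASNS and CHAC1 passed 2-fold in that line, as did 3.06% of all genes (1.51% higher and 1.56% lower). Which members pass 2-fold depends on the setting: CHAC1 differed by 0.81 with an offset of 50 and by 0.83 without background correction, ASNS by 0.98 with the mean of its probes, and median scaling put 4 members past it. CEBPB, DDIT3, TRIB3 and SESN2, 4 of 8, were higher on every array labelled knockdown than on their own line's controls, as 20.7% of all genes were. None of the 8 both rose in MDA-MB-231 and passed 2-fold higher in MDA-MB-453, as 0.438% of all genes did. With median scaling DDIT3 did both, at 1.77 (limma adjusted p = 1.1e-04) and 1.32. In that setting 681 genes were past 2-fold higher in MDA-MB-453, against 196 as reported. The comparisons in each line, the difference between lines and the comparison of control arrays share control arrays.

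**Figure D2:**
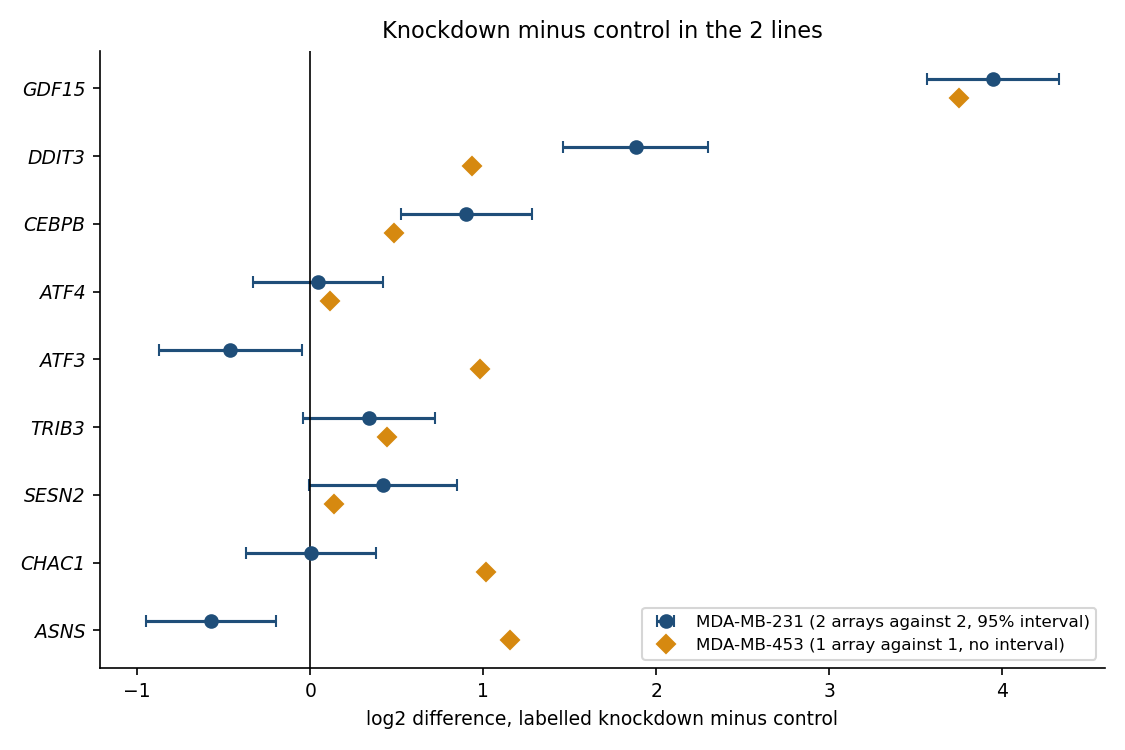
Log2 difference, labelled knockdown minus control (x axis), for each gene in MDA-MB-231 (circles, 95% confidence interval from limma) and in MDA-MB-453 (diamonds, 1 array against 1, no interval). GDF15 lies near 4 in both lines, DDIT3 and CEBPB are above 0 in both, and ASNS is at -0.58 in MDA-MB-231 and at 1.16 in MDA-MB-453.

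ATF4, the transcription factor at the centre of the response, was bright on all 6 arrays and hardly differed by arm. It read 13.24 and 13.15 in MDA-MB-231 labelled knockdown, against 13.14 and 13.16 on the controls, and the groups overlapped. The difference was 0.04 ± 0.16 (SE, 95% confidence interval -0.33 to 0.42, limma adjusted p = 0.867). MDA-MB-453 gave 13.97 on the array labelled knockdown and 13.86 on the control, a difference of 0.11. ATF4 is known to be controlled largely by translation, which an array of RNA does not measure. The other ATF4 probes disagreed with it in size or in direction. A probe for another ATF4 transcript read 9.71 and 9.73 in MDA-MB-231 labelled knockdown against 9.60 and 9.43 on the controls, and 11.53 against 10.45 in MDA-MB-453, a difference of 1.08. The dimmest of the 3 probes differed by -0.46 in MDA-MB-231 and -0.05 in MDA-MB-453.

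DDIT3 encodes CHOP, a transcription factor that ATF4 induces and that promotes cell death under lasting stress. It read 8.81 and 8.73 in MDA-MB-231 labelled knockdown, against 7.06 and 6.71 on the controls, and it read 8.55 in MDA-MB-453 labelled knockdown against 7.62 on that control. Every array labelled knockdown was above its own line's controls, which was so for 20.7% of all genes. DDIT3 rose by 1.88 ± 0.18 in MDA-MB-231 (SE, limma adjusted p = 1.19e-04), a 3.69-fold difference, and differed by 0.93 in MDA-MB-453.

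CEBPB, a basic leucine zipper factor that can pair with ATF4, was at 12.96 and 13.09 in MDA-MB-231 labelled knockdown, against 12.11 and 12.13 on the controls. The MDA-MB-453 values were 12.40 with labelled knockdown and 11.91 with the control. The MDA-MB-231 groups did not overlap, which was so for 69% of all genes (34.1% higher and 34.8% lower), and the rise was 0.90 ± 0.17 (SE, limma adjusted p = 0.0031), against a difference of 0.49 in MDA-MB-453. DDIT3 and CEBPB kept their calls in MDA-MB-231 under all alternatives run, including each array left out, with adjusted p-values of at most 0.0029 and 0.0311.

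ATF3, a stress-induced factor of the same zipper family, went the other way in MDA-MB-231. It was 7.04 and 7.37 in labelled knockdown, against 7.65 and 7.68 on the controls, a difference of -0.46 ± 0.18 (SE, limma adjusted p = 0.0754) that missed the threshold although the groups did not overlap. The MDA-MB-453 values, 7.90 with labelled knockdown and 6.92 with the control, differed by 0.98. The other 2 ATF3 probes were not detected on any array. In MDA-MB-231 the call depended on the setting: median scaling gave -0.55 (adjusted p = 0.0442), and leaving out knockdown replicate 2 gave -0.62 (adjusted p = 0.0277).

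TRIB3, a pseudokinase that ATF4 and CHOP induce and that restrains both, separated the lines far more than the arms. It stood at 9.70 and 9.75 in MDA-MB-231 labelled knockdown and 9.32 and 9.45 on the controls. On the MDA-MB-453 arrays it read 13.23 in labelled knockdown and 12.79 in control. The difference by arm was 0.34 ± 0.17 in MDA-MB-231 (SE, limma adjusted p = 0.141) and 0.45 in MDA-MB-453. SESN2, a leucine sensor that restrains mTORC1, was low in MDA-MB-231, at 5.17 and 4.92 in labelled knockdown, where it was detected, against 4.77 and 4.48 on the controls, where it was not. That difference, 0.42 ± 0.19 (SE, limma adjusted p = 0.108), amounts to at least 1.18-fold once the controls are raised to the dimmest detected probes. In MDA-MB-453 SESN2 read 7.15 in labelled knockdown and 7.01 in control.

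Of the enzymes, CHAC1, which degrades glutathione, stayed undetected throughout MDA-MB-231, at 4.50 and 4.50 in labelled knockdown and 4.55 and 4.45 in control, so only MDA-MB-453 gives it a level. There it read 7.57 in labelled knockdown and 6.56 in control, a 2.03-fold difference. ASNS, the enzyme that makes asparagine, was 9.96 and 9.99 in MDA-MB-231 labelled knockdown, against 10.60 and 10.49 on the controls, and 11.64 in MDA-MB-453 labelled knockdown against 10.49 on that control. The arms thus lay on opposite sides of their controls in the 2 lines. ASNS fell by 0.58 ± 0.16 in MDA-MB-231 (SE, limma adjusted p = 0.0235) and was 2.23-fold higher in MDA-MB-453. Its other probe differed by -0.59 in MDA-MB-231 and by 0.80 in MDA-MB-453. The fall lost its call without knockdown replicate 1 (adjusted p = 0.051), control replicate 1 (0.14) or control replicate 2 (0.0928).

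Whether the effect of labelled knockdown differed between the lines was tested as the MDA-MB-231 difference minus the MDA-MB-453 difference. It passed for 3 of 8 members, all lower in MDA-MB-231, where 13.6% of all genes passed, 7.3% higher and 6.27% lower in MDA-MB-231. The value was -1.73 ± 0.29 for ASNS (SE, limma adjusted p = 0.00604), -1.44 ± 0.31 for ATF3 (adjusted p = 0.02) and -1.02 ± 0.29 for CHAC1 (adjusted p = 0.0493), the last resting on MDA-MB-231 arrays where CHAC1 was not detected. For ATF3 and CHAC1 the calls were lost without either MDA-MB-231 control array, at adjusted p-values of 0.0711 and 0.0809 for ATF3 and 0.147 and 0.132 for CHAC1. DDIT3 gave 0.95 ± 0.32 (adjusted p = 0.0846) and CEBPB 0.42 ± 0.29 (adjusted p = 0.373). ATF4, TRIB3 and SESN2 gave -0.07 (95% confidence interval -0.72 to 0.58), -0.10 (-0.76 to 0.55) and 0.28 (-0.46 to 1.02), so neither direction can be set aside for them. ASNS, ATF3 and CHAC1 are also the members whose promoter windows held TGATGNAA. That overlap was seen after both results and carries no test. It did not extend to the lists of amino acid genes and tRNA charging described below. Of their measured genes that held TGATGNAA, NARS1, TARS1 and SLC7A1 passed. AARS1, GARS1, IARS1, MARS1, SLC3A2, SLC1A5 and SLC1A4 held it and did not pass. The MDA-MB-453 arrays have no replicate and were assumed to vary like those of MDA-MB-231.

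A model with 1 effect for both lines, 3 arrays labelled knockdown against 3 controls, called 5 of 13022 genes (0.0384%, while 3985, or 30.6%, had an unadjusted p below 0.05), and 0 of the 8 members were among them. DDIT3 averaged 1.57 ± 0.24 (SE, limma adjusted p = 0.0564) and CEBPB 0.76 ± 0.17 (adjusted p = 0.066). ASNS and ATF3 averaged 0.0017 and 0.02, since their differences had opposite signs in the 2 lines. Both DDIT3 and CEBPB passed when only genes detected on all 6 arrays were tested, at 0.0306 and 0.0402, where 956 of 8952 genes were called. DDIT3 also passed without background correction (adjusted p = 0.0445), where 304 genes were called. Neither passed with the replicate number as a block (adjusted p = 0.164 for both) or with any single MDA-MB-231 array left out.

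On control arrays, 2 from MDA-MB-231 and 1 from MDA-MB-453 whose spread is taken from the other groups, 6 of 8 measured members other than GDF15 passed the test of MDA-MB-231 minus MDA-MB-453, beside 52.9% of all genes (26% higher and 26.9% lower in MDA-MB-231). TRIB3 differed by -3.40 ± 0.20 (SE, limma adjusted p = 2.1e-06), the largest such difference of the 9. SESN2 differed by -2.38 ± 0.23 and CHAC1 by -2.05 ± 0.20, with neither detected in MDA-MB-231 controls. The sizes of both depend on the offset, and were -1.47 for SESN2 and -1.18 for CHAC1 with an offset of 50. DDIT3 differed by -0.74 ± 0.23 (adjusted p = 0.0229) and ATF4 by -0.70 ± 0.20 (adjusted p = 0.017). Only ATF3 was higher in MDA-MB-231 among those that passed, by 0.75 ± 0.22 (adjusted p = 0.0204). CEBPB and ASNS did not pass, at 0.21 ± 0.20 and 0.06 ± 0.20. The calls of ATF4, DDIT3 and ATF3 were each lost when control replicate 2 was left out (adjusted p = 0.0684, 0.132 and 0.0826), and those of ATF4 and ATF3 also without control replicate 1 (0.0725 and 0.0713). Median scaling likewise ended the calls of ATF4 (adjusted p = 0.0619) and DDIT3 (-0.47, adjusted p = 0.104). GDF15 was chosen on differences that use these control arrays, so its value of -2.18 is a description, and it was -1.31 with an offset of 50.

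Among known ATF4 targets of amino acid metabolism and transport, MDA-MB-231 had 3 rises and 6 falls in 19 measured, with a median difference of -0.14. That is 47.4% called, beside 39.2% of all genes (19.5% rose and 19.7% fell). On the array labelled knockdown in MDA-MB-453, 18 of 19 were higher, beside 52% of all genes, with a median of 0.44. The test of the difference between lines passed for 6 of the 19, 2 higher and 4 lower in MDA-MB-231. PHGDH, the first enzyme of serine synthesis, read 8.33 and 8.11 in MDA-MB-231 labelled knockdown, against 4.81 and 5.05 on the controls, and rose by 3.29 ± 0.18 (SE, limma adjusted p = 4.6e-06), with a difference of 0.88 in MDA-MB-453. SLC6A9, a glycine transporter, rose by 3.19 ± 0.17 in MDA-MB-231, with 0.27 in MDA-MB-453. PSAT1, the next enzyme of serine synthesis, fell by 1.61 ± 0.18 in MDA-MB-231 and was not detected on either MDA-MB-453 array. Its difference of 0.04 there is counted among the 18. Its difference between lines, 1 of the 4 lower, rests on those arrays without detection. The others of the 4, PCK2, SLC7A1 and SHMT2, were detected on all arrays. MTHFD2, a mitochondrial folate enzyme, fell by 1.21 ± 0.19, and was the 1 gene of the list below 0 in MDA-MB-453, at -0.09.

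Aminoacyl-tRNA synthetases, which charge tRNAs with amino acids, and the tRNA exporter XPOT had 12 measured genes. All 12 were higher on the MDA-MB-453 array labelled knockdown, beside 52% of all genes, with a median of 0.99. There 6 passed 2-fold, beside 1.51% of all genes, and 4 did with an offset of 50 or without background correction, and 9 with median scaling. In MDA-MB-231 0 rose and 2 fell, or 16.7% called beside 39.2%, with a median of -0.04. SARS1, the seryl enzyme, read 11.03 in MDA-MB-453 labelled knockdown against 9.53 in control, and 10.46 and 10.18 in MDA-MB-231 labelled knockdown against 10.71 and 10.90 in control. EPRS1, for glutamate and proline, differed by 1.24 in MDA-MB-453 and 0.34 in MDA-MB-231, and XPOT by 1.04 and -0.41. NARS1, the asparaginyl enzyme, fell by 0.95 ± 0.21 in MDA-MB-231 (SE, limma adjusted p = 0.0076) and TARS1, the threonyl enzyme, by 0.87 ± 0.24 (adjusted p = 0.0217), while they were higher by 1.11 and 1.03 in MDA-MB-453. The difference between lines passed for 4 of 12 genes, NARS1, TARS1, SARS1 and XPOT, all lower in MDA-MB-231. TGATGNAA was present in 7 of the 11 listed genes that have a promoter window, or 63.6%, beside 4.46% of all genes, and CARS1, 1 of the 7, was not measured here. Under median scaling, which moved the median of all genes in MDA-MB-453 to 0.26, the list's median was 1.31.

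**Figure D3:**
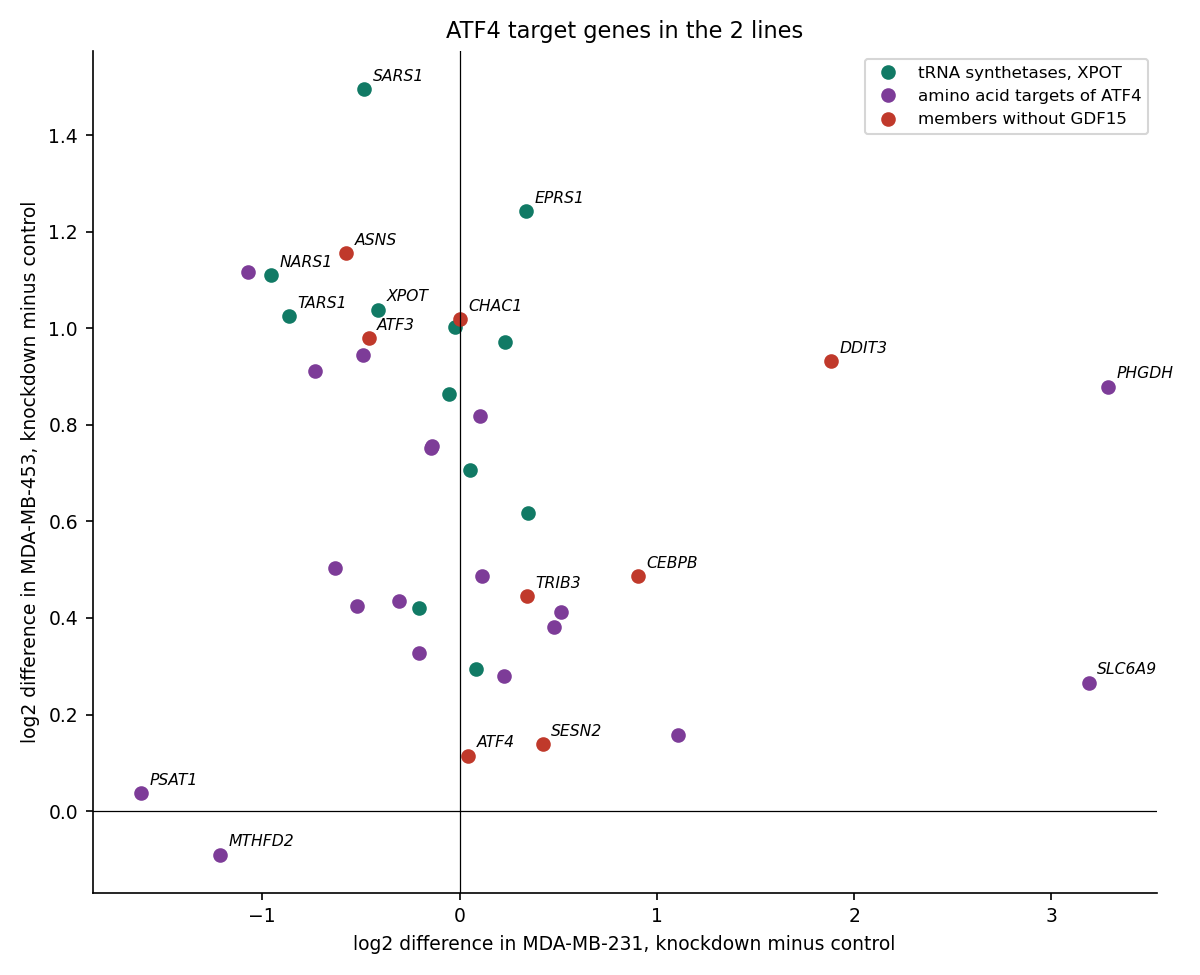
Log2 difference, labelled knockdown minus control, in MDA-MB-231 (x axis) against MDA-MB-453 (y axis) for the 8 members other than GDF15, the 19 amino acid genes and the 12 genes of tRNA charging and export; each point is a gene and the lines mark 0. All but MTHFD2 lie above 0 in MDA-MB-453, while in MDA-MB-231 they lie on both sides of 0.

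Of the other known targets of ATF4 and CHOP, 9 of 26 measured genes rose in MDA-MB-231 and 3 fell, beside 19.5% and 19.7% of all genes, with a median of 0.0093. In MDA-MB-453 17 were higher, beside 52% of all genes, with a median of 0.20. TXNIP, which inhibits thioredoxin, rose by 3.86 ± 0.17 (SE) in MDA-MB-231, and DDIT4, an inhibitor of mTORC1, by 3.73 ± 0.17, with 0.34 and 0.12 in MDA-MB-453. The angiogenic factor VEGFA rose by 2.05 ± 0.17 and KLHL24, an adaptor of a ubiquitin ligase, by 1.61 ± 0.19 (limma adjusted p at most 3.4e-04 for these 4). The secreted STC2 did not pass in MDA-MB-231, at 0.35 ± 0.21, and was 1.38 higher in MDA-MB-453. NUPR1 rose by 0.68 ± 0.22 in MDA-MB-231 (limma adjusted p = 0.042) and was 1.22 higher in MDA-MB-453. It thus both rose and passed 2-fold higher, as 0.438% of all genes did. In MDA-MB-231 it was dim, at 5.83 and 5.77 in labelled knockdown against 5.44 and 4.80 in control. Several of these genes also answer to hypoxia or glucose.

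Upstream of ATF4, genes of the eIF2 kinases and their machinery gave 1 rise and 6 falls among 22 measured in MDA-MB-231, or 31.8% called beside 39.2% of all genes, with a median of -0.25. In MDA-MB-453 17 were higher, beside 52%, with a median of 0.22. DNAJC3, a chaperone that inhibits eIF2 kinases, fell by 1.32 ± 0.17 in MDA-MB-231 (SE, limma adjusted p = 5.1e-04). EIF2B4, a subunit of the eIF2 exchange factor, fell by 0.83 ± 0.17, the initiation factor EIF2A by 0.67 ± 0.20 and DELE1, which relays mitochondrial stress to an eIF2 kinase, by 0.67 ± 0.17. EIF2S2, the beta subunit of eIF2, differed by -0.22 in MDA-MB-231 and by 1.03 in MDA-MB-453.

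In the ATF6 and XBP1 arms of the unfolded protein response 5 of 19 measured members rose in MDA-MB-231 and 4 fell, or 47.4% called beside 39.2% of all genes (19.5% rose and 19.7% fell), with medians of 0.28 there and 0.19 in MDA-MB-453. HSPA5, the main chaperone of the endoplasmic reticulum, had values of 10.06 and 9.86 in MDA-MB-231 labelled knockdown against 8.59 and 8.39 in control, and 8.23 against 6.84 in MDA-MB-453. It rose by 1.47 ± 0.18 (SE, limma adjusted p = 3.6e-04), with 1.38 in MDA-MB-453. Its difference between lines was 0.08 ± 0.31 (adjusted p = 0.885). PDIA4, a disulfide isomerase, rose by 1.37 ± 0.18 and WFS1, a membrane protein of the same organelle, by 1.24 ± 0.17, with 0.33 and -0.31 in MDA-MB-453. DNAJC3 belongs to this list too.

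Targets of p53, another known regulator of GDF15, were called in MDA-MB-231 at a share near that of all genes, 42.1% beside 39.2%. There 2 of 19 measured genes rose and 6 fell, with a median of -0.14. In MDA-MB-453 11 were higher, beside 52% of all genes. There 0 were past 2-fold higher and 3 past 2-fold lower, beside 1.51% and 1.56% of all genes. With an offset of 50 or without background correction 1 was past 2-fold lower. With median scaling 0 were, and 1 was past 2-fold higher. TIGAR, a phosphatase of glycolysis, fell by 1.71 ± 0.16 (SE, limma adjusted p = 1.1e-04) and the nuclease AEN by 1.51 ± 0.26 in MDA-MB-231, with -1.04 and -1.11 in MDA-MB-453. TP53I3, a quinone oxidoreductase, fell by 1.16 ± 0.17 and differed by 0.45 in MDA-MB-453. The death receptor TNFRSF10B, which CHOP also induces, rose by 1.48 ± 0.16 in MDA-MB-231 and differed by 0.23 in MDA-MB-453.

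**Figure D4:**
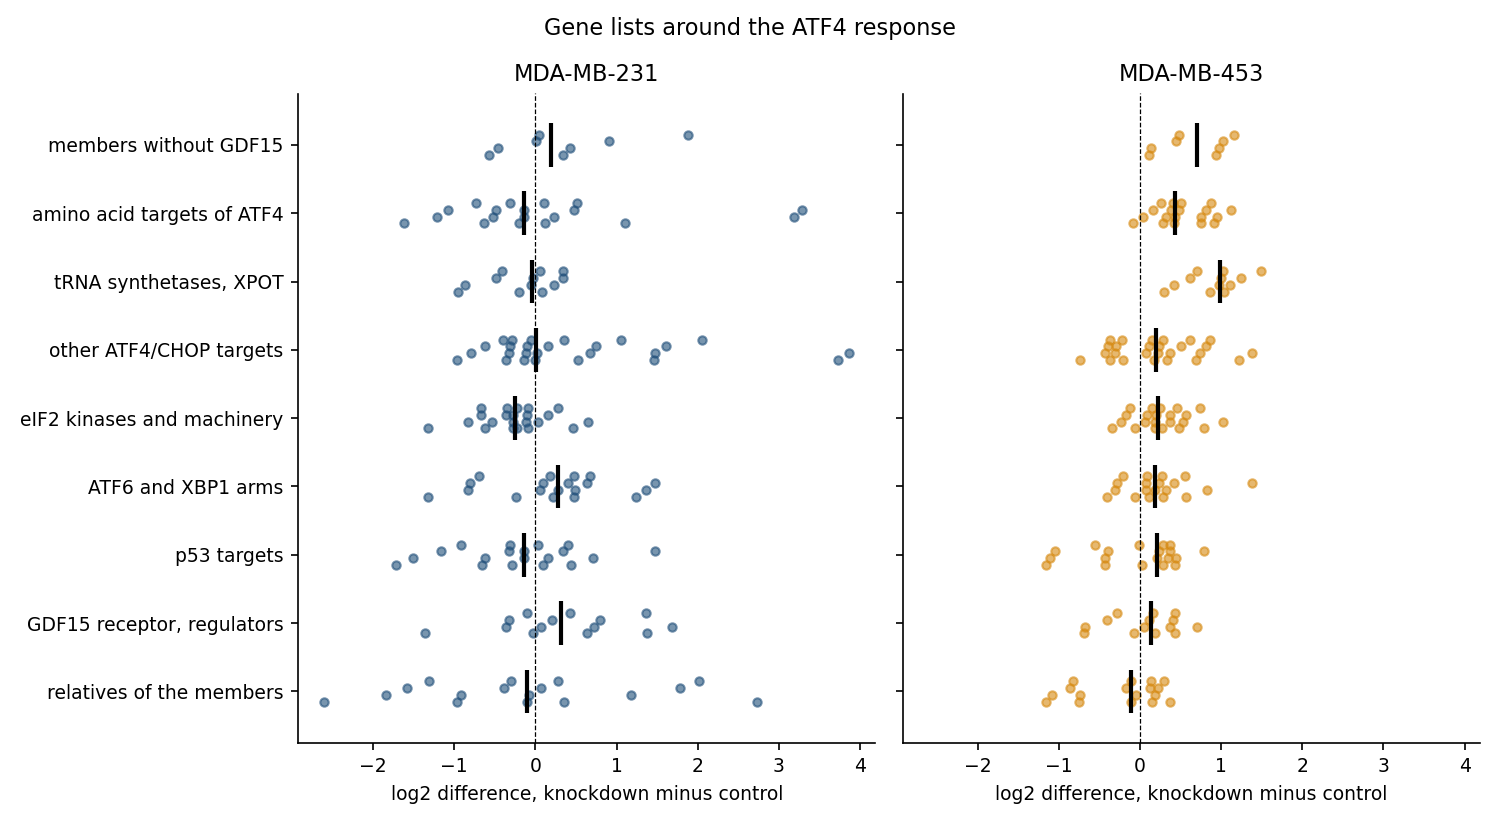
Log2 difference, labelled knockdown minus control (x axis), for each measured gene of the 9 lists in MDA-MB-231 (left) and MDA-MB-453 (right, 1 array against 1); points are genes, offset vertically for legibility, and black bars are list medians. In MDA-MB-453 the median is 0.99 for tRNA synthetases and XPOT and 0.71 for the members other than GDF15; in MDA-MB-231 it is -0.04 and 0.19.

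Factors that act on GDF15 itself were checked last. Among 14 measured, 6 rose and 1 fell in MDA-MB-231, beside 19.5% and 19.7% of all genes, with a median of 0.32, and the median was 0.14 in MDA-MB-453. FURIN, a protease that cuts precursors of the TGF-beta family, fell by 1.36 ± 0.16 (SE, limma adjusted p = 3.6e-04), and its relative PCSK5 rose by 1.38 ± 0.19. The hypoxia factor HIF1A rose by 1.68 ± 0.18 and MMP14, a membrane protease known to cleave GFRAL, by 1.36 ± 0.17. In MDA-MB-453 these 4 differed by 0.05, -0.67, 0.43 and 0.11, but MMP14 was not detected there on either array and FURIN not on the control.

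The gene whose pattern was most like that of GDF15 was TEX19, a germline gene, with a Pearson correlation of 0.996 over the 6 arrays among 1788 genes detected on all arrays and spanning at least 2 log2 units. It read 8.17 and 8.08 in MDA-MB-231 labelled knockdown against 5.25 and 5.15 in control, and 9.84 against 7.16 in MDA-MB-453. The next were OAS2 (0.969), CTSF (0.965), PCED1B (0.964), MAGED2 (0.957) and HSPA2 (0.952). Among the members DDIT3 was closest to GDF15, at 0.912, followed by SESN2 at 0.578 and CEBPB at 0.572. ATF4, by contrast, was most like TRIB3 among the members (0.996), both being higher in MDA-MB-453. Over the 5771 genes spanning at least 1 log2 unit, its closest were RHPN1, MIF4GD, CREBBP, EIF4ENIF1, DBNDD1 and ESS2, at 0.998 to 0.999. These values describe 6 arrays that share 2 lines and 2 arms, and GDF15 was itself picked for this pattern.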

How the data were processed

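Biotinylated cRNA made from total RNA was read on Illumina arrays, per the labels' protocols. The authors deposited probe intensity values that were not normalized, with a detection p-value for each probe per the file headers, and processed log2 values. The processed values equal the quantile-normalized log2 intensities to within 5.26e-09, with no background correction, and have a median of 5.71 in every column. The program behind the intensities is not given in the sources used here.

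With limma 3.58.1 in R 4.3.3, background was corrected (normexp with negative controls inferred from detection p, offset 16) and arrays were quantile-normalized and put on a log2 scale. Probes detected at p below 0.05 on at least 2 of 6 arrays were kept (17668), and the brightest stood for each of 13022 genes. Gene symbols come from the platform's own annotation, whose names may be dated. The 8 probes with several symbols and 17986 with none were left out. The RefSeq table held 30074 of the annotated probes' genes, and 0 symbols changed. Where no array of a group detected a gene, its fold is a lower bound at the offset of 16 only.

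Contrasts came from a linear model of the 4 groups, and the common effect from a second model with line and arm as terms, all two-sided with Benjamini-Hochberg adjustment. The first model has 2 residual degrees of freedom plus a prior worth 6.52. An exact permutation of 2 against 2 arrays cannot give a p below 0.333, so smaller p-values rest on the moderated spread. The labels put all arrays in 1 batch and no slide is named, so no batch term was possible. The fit was tested on simulated data.

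The members and lists were chosen with earlier results of these data known. Named from each list were up to 4 genes called in MDA-MB-231 with the largest difference and up to 3 others past 2-fold in MDA-MB-453. Outside this rule, NUPR1, PCK2, SHMT2 and genes of the tRNA and amino acid lists that held TGATGNAA are named too. Alternatives were another offset, no background correction, median scaling, other detection filters, the mean of a gene's probes, replicate number as a block, arrays left out in turn and MDA-MB-231 arrays alone. Same-numbered arrays of the 2 MDA-MB-231 arms had deviations correlated at 0.0713.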

Additional observations from a re-analysis of the deposited data

Results flagged for a closer look

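The results here are those genes named in the report or below where the effect of labelled knockdown differed between MDA-MB-231 and MDA-MB-453 in the test of the difference itself (limma, adjusted p below 0.05), given as the log2 effect in MDA-MB-231 minus that in MDA-MB-453. They are a subset of the 1766 genes that passed, since other genes of the same lists passed too. Line and hairpin cannot be told apart in it, and MDA-MB-453 has 1 array per arm.

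Among the members, the difference was -1.44 for ATF3, -1.02 for CHAC1 and -1.73 for ASNS. CHAC1 was not detected in MDA-MB-231. Of the amino acid genes, 2 passed higher and 4 lower in MDA-MB-231, and of these PHGDH gave 2.41, SLC6A9 2.92 and PSAT1 -1.65. PSAT1 was not detected in MDA-MB-453. The others that passed lower were PCK2 at -2.19, SLC7A1 at -1.64 and SHMT2 at -1.44, each detected on all 6 arrays. All 4 from tRNA charging and export were negative, at -2.06 for NARS1, -1.89 for TARS1, -1.98 for SARS1 and -1.45 for XPOT. Among other ATF4 and CHOP targets 7 passed higher and 2 lower, and those named gave 3.53 for TXNIP, 3.61 for DDIT4, 1.87 for VEGFA and 1.32 for KLHL24.

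In the eIF2 and unfolded protein lists, DNAJC3 gave -1.41, EIF2S2 -1.25 and WFS1 1.54. Among p53 targets TNFRSF10B gave 1.24 and TP53I3 -1.60. Among genes acting on GDF15, HIF1A gave 1.25, PCSK5 2.05, MMP14 1.25 and FURIN -1.41. In MDA-MB-453 MMP14 was not detected on either array and FURIN not on the control. Among relatives of the members, 4 passed higher and 2 lower, and those named gave 2.61 for INHBB, -1.52 for CHAC2 and 1.86 for CEBPD.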

How the results depend on the processing

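Across 443 member values recomputed under the alternatives, 17 lost a call, 5 gained one, 19 moved and 3 were counted as reversed. The remaining 399 stayed on their side of the threshold or, where untested, moved by less than the spread. The reversed values are GDF15's difference between lines, which was 0.20 as reported and -0.59 with an offset of 50, -0.47 without background correction and -0.27 with median scaling. For tested values, a change of sign with no call in either setting counts among the 399. So SESN2's difference between lines went from 0.28 to -0.06 with median scaling. ATF4 in MDA-MB-231 went from 0.04 to -0.01 with median scaling and to -0.07 with the mean of its probes. For MDA-MB-231, 5103 genes were called, and 2893 to 5246 with 1 array left out (3305 when this was control replicate 1, 2893 when it was control replicate 2). In MDA-MB-453, 399 genes passed 2-fold, against 183 with an offset of 50, 201 without background correction, 727 with median scaling (681 higher) and 252 among genes detected on all 6 arrays. The difference between lines called 1766 genes, 2771 with median scaling, 1070 among genes detected on all 6 arrays, and 726 to 2678 with 1 array left out. The common effect called 5 genes, 72 with an offset of 50, 304 without background correction, 11 with median scaling, 956 among genes detected on all 6 arrays, and 1 to 3 with 1 array left out. The cause of these shifts was not tested, except that restricting the genes tests fewer of them. With the replicate number as a replicate block, the common effect called 3 genes, the CHAC1 difference between lines had an adjusted p of 0.07, and the line differences of ATF3 and DDIT3 had 0.0535 and 0.0576; the block lost no other member call. The replicate numbers only name the arrays. Genes near background, such as GDF15 and SESN2 in MDA-MB-231 controls and CHAC1 in MDA-MB-231, have differences set by the offset.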

Other observations

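Of 17 measured relatives of the members 4 rose and 6 fell in MDA-MB-231, or 58.8% called beside 39.2% of all genes (19.5% rose and 19.7% fell), with medians of -0.10 in both lines. INHBB, a subunit of activins and like GDF15 a TGF-beta family ligand, rose by 2.74 ± 0.20 in MDA-MB-231 (SE, limma adjusted p = 2.6e-05) and differed by 0.13 in MDA-MB-453. CEBPD, a relative of CEBPB, rose by 2.02 ± 0.18, with 0.15 in MDA-MB-453. CHAC2, a relative of CHAC1 that also degrades glutathione, fell by 2.60 ± 0.23, with -1.08 in MDA-MB-453, while CHAC1 itself was 1.02 higher there. ASNSD1, a relative of ASNS, fell by 1.84 ± 0.20, with -0.86 in MDA-MB-453.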
